A study of Mus musculus with 11 samples.

Results

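The livers of Akt1 double transgenic mice fed a high-fat diet were compared with the livers of wild-type mice fed a normal diet, gene by gene, on 7 of the 11 arrays of the series. Samples were taken into the comparison by their titles, which gave 4 transgenic high-fat mice (arrays DH 1 to 4) and 3 wild-type normal-diet mice (arrays CN 1 to 3), 1 oligonucleotide array per mouse. The other 4 arrays are from wild-type mice on the high-fat diet (CH 1 to 4), and their values are given beside the comparison. All 11 mice were male, of a mixed genetic background, and received doxycycline for 3 weeks, the drug used to switch inducible transgenes on or off. The genotype is labelled DTG in the transgenic mice and wildtype in the rest, and muscle hypertrophy is marked in the transgenic mice alone. The promoter of the transgene, the age of the mice, the make-up of the diets and the time on them are not given in the sources used here. Diet and genotype differ together between these 2 groups, so their shares in a difference cannot be told apart from this contrast.

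Akt1 is a kinase that relays insulin and growth factor signals and drives muscle growth when active in muscle. The liver answers both nutrients and circulating cytokines: interleukin-6 acts through the transcription factor STAT3, with C/EBP factors, to raise the acute phase proteins that hepatocytes secrete into plasma. High carbohydrate intake raises hepatic enzymes of fatty acid synthesis, and the transcription factor NRF2 maintains glutathione-conjugating enzymes. Hepatocytes rarely divide in the adult, and genes that license DNA for replication are then little expressed.

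Promoters of some genes that rose are shown first, picked because they hold matches to motifs of factors of these pathways. Other genes that rose hold no match to the motifs searched for their list, among them Lrg1, Itih3, Serpina3n, Cxcl1, Stat3 and Rrm1. The windows are the 250 bases before the annotated start in RefSeq (mouse build GRCm38.p6), written 5′ to 3′ on the strand of the gene, and capitals mark a match. Saa1 (chr7:46742981-46743230, minus strand) and Saa2 (chr7:46751583-46751832, plus strand) lie side by side and both hold TTGCACAA, a match to the C/EBP motif TTGCNNAA. Lcn2 (chr2:32387740-32387989, minus strand) holds another match to that motif, and Steap4 (chr5:7960222-7960471, plus strand) holds one beside a match to the STAT motif TTCNNNGAA. Socs3 (chr11:117969367-117969616, minus strand) holds a STAT match, and Mcm5 (chr8:75109259-75109508, plus strand) holds matches to TTTCGCG and to TTTGGCG on the opposite strand, which share bases, both forms of the E2F motif.
Saa1: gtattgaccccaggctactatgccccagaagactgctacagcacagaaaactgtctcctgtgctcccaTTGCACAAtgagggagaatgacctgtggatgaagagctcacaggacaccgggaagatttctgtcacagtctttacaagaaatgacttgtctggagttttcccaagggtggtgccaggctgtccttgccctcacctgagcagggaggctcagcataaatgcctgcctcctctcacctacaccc
Saa2: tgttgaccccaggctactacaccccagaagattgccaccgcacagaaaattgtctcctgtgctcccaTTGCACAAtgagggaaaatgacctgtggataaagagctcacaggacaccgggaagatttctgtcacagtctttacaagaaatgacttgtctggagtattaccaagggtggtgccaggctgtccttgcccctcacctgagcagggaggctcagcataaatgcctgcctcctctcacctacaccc
Lcn2: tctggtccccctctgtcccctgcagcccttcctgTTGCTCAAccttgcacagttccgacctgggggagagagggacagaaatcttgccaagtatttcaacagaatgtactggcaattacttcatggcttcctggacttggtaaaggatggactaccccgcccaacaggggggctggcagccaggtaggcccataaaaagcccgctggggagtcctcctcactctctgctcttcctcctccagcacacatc
Steap4: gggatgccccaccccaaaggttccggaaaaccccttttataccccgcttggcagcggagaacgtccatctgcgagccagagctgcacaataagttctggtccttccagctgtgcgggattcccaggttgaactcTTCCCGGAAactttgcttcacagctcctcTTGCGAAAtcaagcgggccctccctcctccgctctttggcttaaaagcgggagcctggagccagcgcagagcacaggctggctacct
Socs3: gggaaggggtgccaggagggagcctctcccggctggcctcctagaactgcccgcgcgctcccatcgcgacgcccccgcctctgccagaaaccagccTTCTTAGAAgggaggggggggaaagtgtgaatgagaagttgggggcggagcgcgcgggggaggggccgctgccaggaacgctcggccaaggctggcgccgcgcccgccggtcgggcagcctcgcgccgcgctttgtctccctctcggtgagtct
Mcm5: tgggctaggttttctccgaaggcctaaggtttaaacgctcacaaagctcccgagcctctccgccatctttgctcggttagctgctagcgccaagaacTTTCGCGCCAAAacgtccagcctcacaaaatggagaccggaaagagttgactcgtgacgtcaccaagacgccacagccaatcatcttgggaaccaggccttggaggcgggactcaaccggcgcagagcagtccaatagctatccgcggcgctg

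Motifs were searched on both strands in the windows of the 6493 tested genes that had one. The C/EBP motif was found in 12 of 21 acute phase genes with a window (57.1%) and in 9.9% of all tested genes. Among the 11 acute phase genes past the threshold with a window, 5 held it (45.5%), a smaller share than in the whole list. The STAT motif was found in 6 of 21 acute phase genes (28.6%) and in 7.1% of all genes. Replication genes held an E2F match in 5 of 24 windows (20.8%), against 4.4% of all. Mcm5 was the single member past the threshold that held one, of 8 with a window (12.5%). The antioxidant motif TGACNNNGC was in 7 of 29 glutathione and NRF2 genes (24.1%) against 13.8% of all, and the sterol motif TCACNCCAC in 1 of 21 cholesterol genes (4.8%) against 1.4%. These shares describe letters in a window, and no factor binding was measured.

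Between the groups, 165 of 7924 genes (2.08%) passed an adjusted p of 0.05 in limma, 111 higher in the transgenic high-fat mice (1.4%) and 54 lower (0.681%). Of these, 57 were at least 2-fold higher and 15 at least 2-fold lower, and the median size of the log2 difference was 0.96 against 0.20 over all genes tested. The arrays of the 2 groups did not overlap for 670 genes with higher signal (8.46%) and 563 with lower signal (7.1%), and all 165 called genes were among them. An unadjusted p under 0.05 was reached by 1451 genes, where chance gives 396.2. The 4 wild-type high-fat arrays share the estimate of the spread in this fit. The number called rested on single arrays: it was 48 without CN 1, 48 without CN 2, 73 without CN 3, 96 without DH 3, 36 without DH 4 and 23 without DH 3 and DH 4 together. Of 70 called genes named from the largest changes and the gene lists, 16 stayed past the threshold whichever of the 11 arrays was left out, 22 lost it without 1 to 4 of the arrays in turn and 32 without 5 or more.

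**Figure D1:**
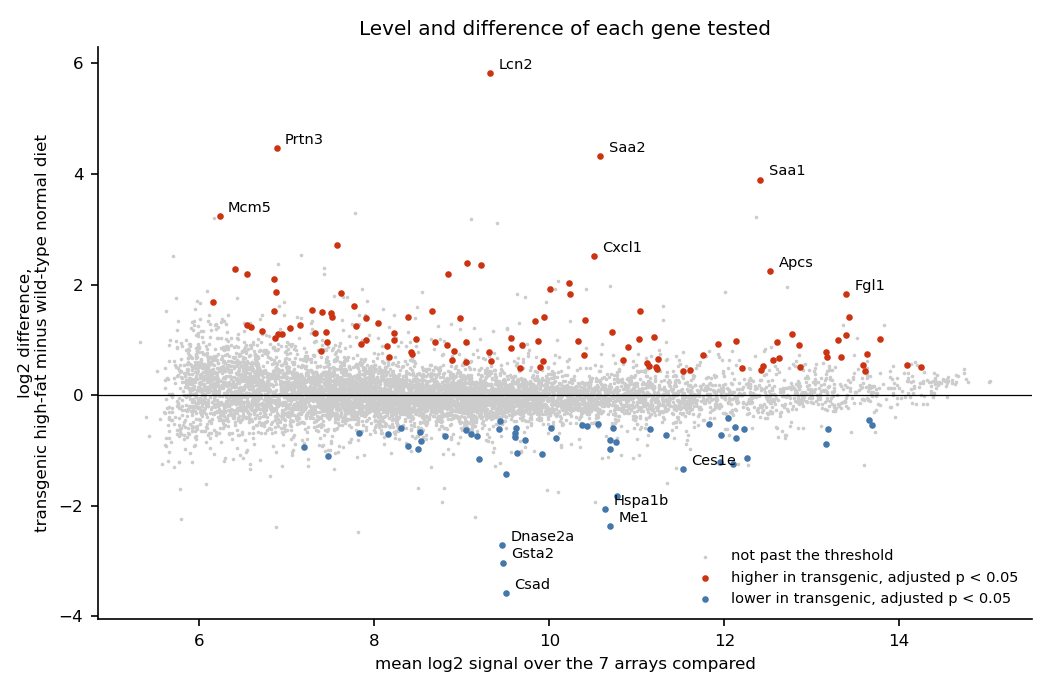
Each point is 1 of 7924 genes, with its mean log2 signal over the 7 arrays on the horizontal axis and the log2 difference, transgenic high-fat minus wild-type normal diet, on the vertical axis. Red points (111 genes) passed as higher and blue points (54 genes) as lower, and Lcn2 at 5.83 and Csad at -3.58 lie at the extremes of the called genes.

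**Figure D2:**
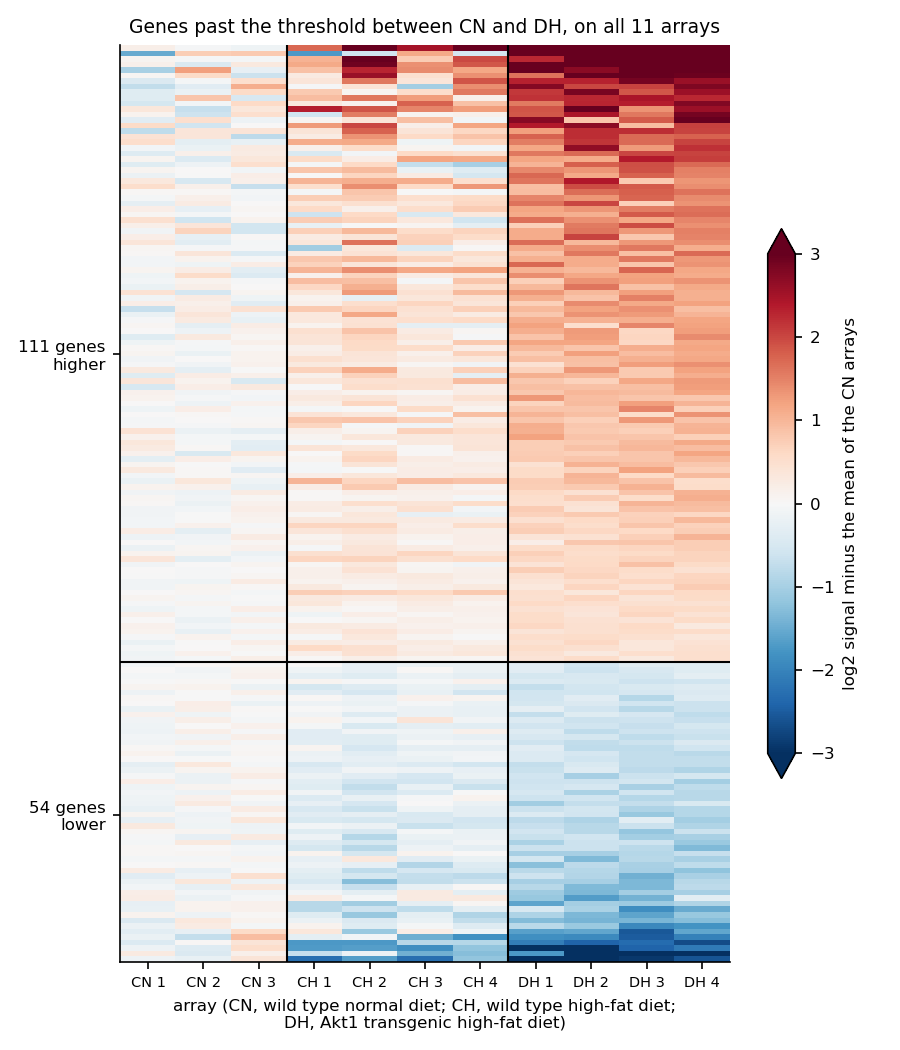
Each row is 1 of the 165 genes past the threshold and each column 1 of the 11 arrays. Colour gives the log2 signal minus the mean of the 3 CN arrays, from -3 (blue) to 3 (red), and rows run from the largest rise to the largest fall. The DH arrays differ in colour from the CN arrays by construction of the list, and the CH arrays are shown beside them. Both are drawn relative to the same CN arrays, so their colours are not independent.

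Arrays DH 3 and DH 4 differed from the other 9 in several whole-array measures. Their brightest signals were 42425.5 and 43272.9 (Apoa1), against 27779.5 to 35450.1 elsewhere, although the trimmed mean was near 500.3 on every array. DH 3 also had the lowest polyadenylated spike signal, 92.09 against 231.1 to 371.6, and the highest ratio of 3′ to 5′ Gapdh signal, a measure tied to RNA quality, at 0.823 against 0.669 to 0.768. Liver identity was clear on every array: Alb, the serum albumin gene, ranged from 20218.5 to 22190.6 in normal-diet mice and from 21781.5 to 31650.6 in transgenic mice. Summed over 6 hepatocyte markers, signal ran from 107380.2 to 131449.2 on the CN arrays and from 131900.3 to 180429.2 on the DH arrays. The groups were only narrowly apart, and the 2 highest were DH 3 and DH 4. Arrays did not overlap for 2 of the 6, Tat and Cps1. Tat, an aminotransferase also in the gluconeogenesis list, ran from 5406.6 to 11986.1 on CN and from 12180.1 to 20348.3 on DH. The part that these array features had in the differences below was not tested beyond leaving the arrays out.

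Acute phase proteins made up the list with the most rises. Of 26 tested genes, 13 rose (50%, against 1.4% of all genes tested) and none fell. The shares over all genes, 1.4% higher and 0.681% lower, also stand beside the list counts that follow. In this list 25 members had a positive difference, and the median log2 difference was 0.82 against 0.00 over all genes tested. The count was 6 without CN 1, 6 without CN 2, 6 without DH 4 and 5 without DH 3 and DH 4, while the median stayed between 0.66 and 0.91 over all settings. Summed hepatocyte marker signal was also higher on the DH arrays, though narrowly for DH 1, as given above.

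Lcn2 encodes lipocalin 2, a secreted protein that binds bacterial iron carriers. Its signals were 71.8, 62.0 and 58.7 in normal-diet wild-type mice and 1180.1, 3174.5, 5720.0 and 8078.8 in transgenic mice. Every transgenic array stood far above the normal-diet arrays, and the transgenic arrays spread widely among themselves. The fitted log2 difference was 5.83 ± 0.62 (SE), or 56.7-fold (limma adjusted p = 0.00118). Wild-type mice on the high-fat diet had 211.8, 1068.3, 359.5 and 764.4. The call held whichever array was left out.

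Saa1, which encodes the plasma apolipoprotein serum amyloid A1, had signals of 1287.8, 861.0 and 1419.5 in normal-diet mice and 9657.7, 18530.6, 19885.7 and 25387.9 in transgenic mice. All 4 transgenic arrays were above all 3 normal-diet arrays, a 14.9-fold difference (log2 3.90 ± 0.40, limma adjusted p = 0.00118). In wild-type high-fat mice the values were 2551.6, 8759.7, 3025.5 and 4256.7. Its neighbour Saa2, measured by a probe set that may cross-hybridise within the family, went from 295.3, 271.8 and 265.2 to 1320.8, 6325.8, 6833.2 and 16431.4. The log2 difference was 4.32 ± 0.75 (limma adjusted p = 0.0162), and the call ended without CN 1, CN 2, CN 3 or DH 4, with adjusted p up to 0.0565. Saa3 and Saa4, other members of the family, were at 0.59 and 0.54 (log2) and did not pass.

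Apcs, which encodes serum amyloid P, a pentraxin of innate immunity, had 1686.3, 2280.5 and 3685.0 in normal-diet mice and 7133.1, 11712.5, 12446.1 and 16713.0 in transgenic mice. The groups were apart by 4.74-fold (log2 2.25 ± 0.39, limma adjusted p = 0.0162). The call ended without CN 1, CN 2 or DH 4, with adjusted p up to 0.0577. Its relative Crp, C-reactive protein, was at 0.39 and did not pass.

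Fgl1, which encodes a hepatocyte-derived relative of fibrinogen, rose from 3955.4, 5785.0 and 6172.3 to 15593.8, 16934.2, 20776.5 and 21115.0 (log2 1.82 ± 0.24, limma adjusted p = 0.00478). Wild-type high-fat values of 3783.4 to 7822.7 overlapped the normal-diet range. Lrg1, a leucine-rich plasma glycoprotein, rose from 7229.1, 5252.5 and 6499.9 to 14292.6, 15755.0, 18149.3 and 19506.0 (log2 1.42 ± 0.16, limma adjusted p = 0.00123). Itih3, a heavy chain of the inter-alpha-trypsin inhibitors that stabilise hyaluronan, rose from 8729.1, 9505.4 and 10072.4 to 17705.3, 17493.2, 19783.8 and 20967.8 (log2 1.01 ± 0.10, limma adjusted p = 0.00118). These 3 calls held with each array left out in turn, and Lrg1 and Itih3 also passed without DH 3 and DH 4 together, with limma adjusted p of 0.0280 and 0.00630. Fgl1 then had 0.0624.

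The remaining rises in the list were Orm2 (2.19), Il1rn (1.39), Steap4 (1.15), Serpina3n (0.90), Orm1 (0.74) and Itih4 (0.51), all in log2 units. Orm1 and Orm2 encode orosomucoids, abundant plasma glycoproteins, and Il1rn the antagonist of the interleukin-1 receptor. Il1rn had 156.6, 177.6 and 93.5 in normal-diet mice and 225.2, 402.0, 532.8 and 353.1 in transgenic mice, and its call ended when any CN array, DH 2, DH 3 or DH 4 was left out. Fibrinogen chains Fga, Fgb and Fgg were at 0.36, 0.47 and 0.37 and haptoglobin, Hp, at 0.54, and none of the 4 passed (limma adjusted p from 0.0636 to 0.179). Hamp, the iron hormone hepcidin, was the only tested member with a negative value, -0.17.

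**Figure D3:**
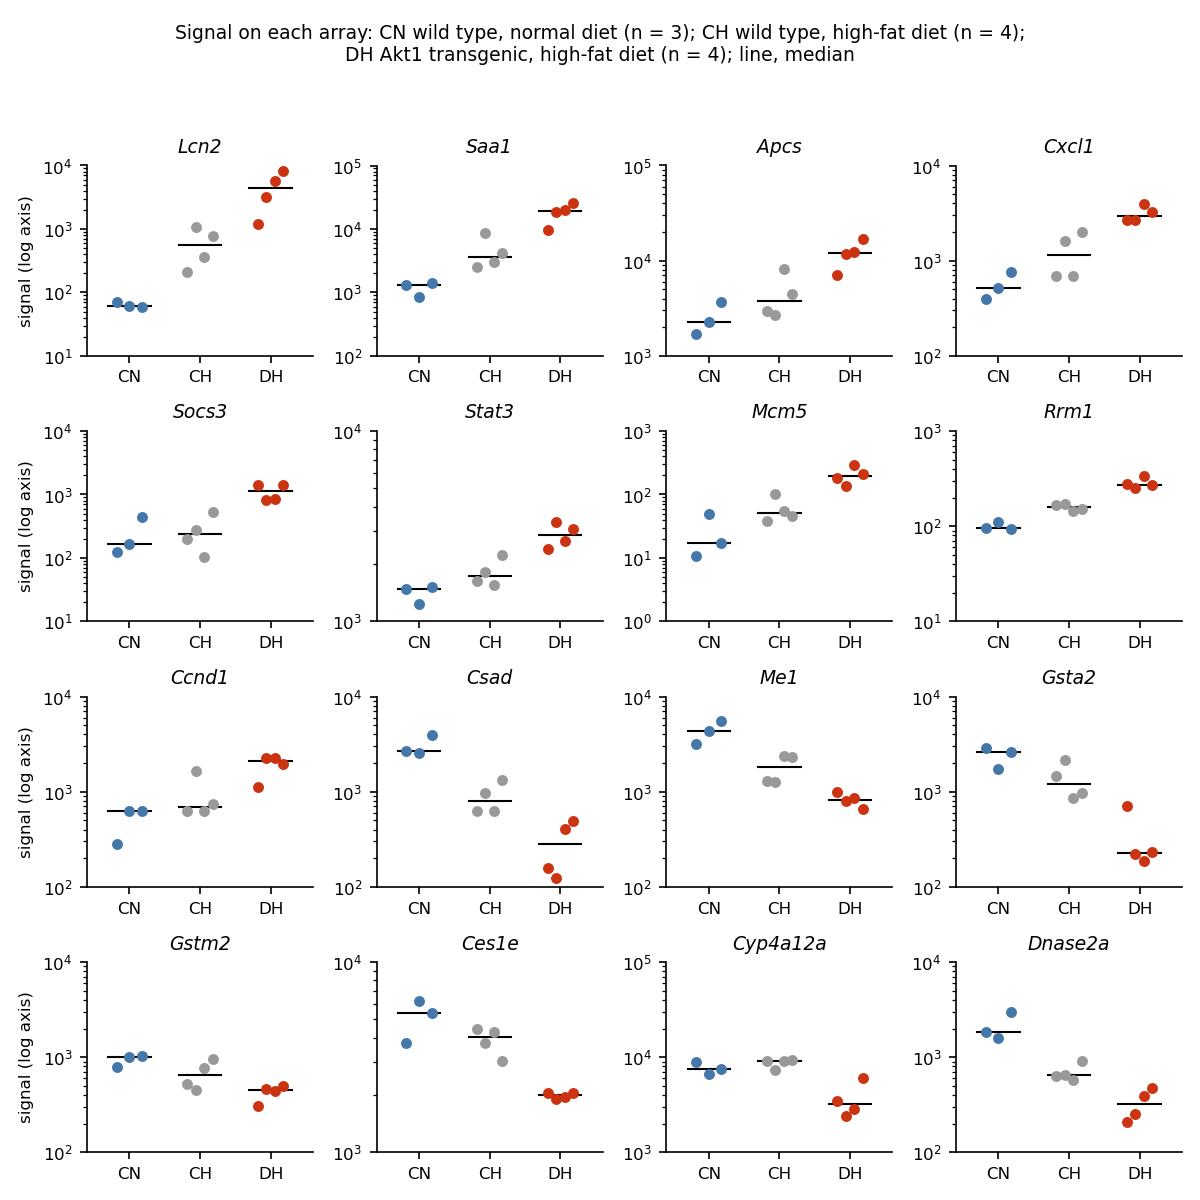
Signals of 16 genes on each of the 11 arrays, on log axes, with points for single mice and a line at the group median (CN, wild type normal diet, n = 3; CH, wild type high-fat diet, n = 4; DH, Akt1 transgenic high-fat diet, n = 4). In the first 9 panels the DH points lie above every CN point, from Lcn2 (58.7 to 71.8 against 1180.1 to 8078.8) to Ccnd1, and in the last 7, from Csad to Dnase2a, they lie below every CN point.

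Genes of interleukin-6, interleukin-1 and NF-kB signalling included 3 rises (13%, against 1.4% of all genes) and no fall among 23 tested. The median log2 difference was 0.34. Cxcl1, a chemokine that attracts neutrophils, had 397.8, 514.6 and 760.5 in normal-diet mice and 2656.3, 2681.4, 3904.3 and 3258.7 in transgenic mice. The transgenic values were close together and all above the normal-diet ones (5.74-fold, log2 2.52 ± 0.36, limma adjusted p = 0.00788). Stat3, the transcription factor downstream of the interleukin-6 receptor, rose from 1476.8, 1227.8 and 1510.9 to 2387.2, 3309.5, 2660.0 and 3049.6 (log2 1.02 ± 0.15, limma adjusted p = 0.00928). Neither call ended with a single array left out.

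Socs3, the feedback inhibitor that STAT3 induces, had 122.9, 163.9 and 435.9 against 1394.4, 828.3, 840.1 and 1429.6. Every transgenic value was above the highest normal-diet value, that of CN 3 (log2 2.40 ± 0.52, limma adjusted p = 0.0413). Its call ended without any of CN 1, CN 2, CH 1 and the 4 DH arrays, with adjusted p up to 0.131. The receptor subunits Il6st and Il6ra were at 0.47 and 0.46 and the interleukin-1 receptor Il1r1 at 1.26 (log2), and none of the 3 passed. Il1b, which encodes interleukin-1 beta, was at 0.20.

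Complement and coagulation factors, which hepatocytes also secrete, had 3 rises among 31 tested genes (9.68%, against 1.4% of all genes) and no fall. The median was 0.21, with 27 positive values. Pros1, the anticoagulant protein S, rose from 438.8, 621.1 and 568.4 to 930.3, 962.5, 960.3 and 1047.1 (log2 0.86 ± 0.15, limma adjusted p = 0.0173). Cfi, complement factor I, rose by 0.55 ± 0.11 and Serpinf2, alpha-2-antiplasmin, by 0.44 ± 0.10. All 3 had transgenic arrays close together and apart from normal-diet arrays. The count was 0 without CN 1 and 0 without DH 4.

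Antigen presentation genes included 3 rises (16.7%, against 1.4% of all genes) and no fall among 18, with a median of 0.64. Psmb9, a subunit of the immunoproteasome, had 270.4, 461.7 and 198.7 against 635.9, 894.2, 720.3 and 833.2 (log2 1.39 ± 0.24, limma adjusted p = 0.0157), and its call ended without CN 1 or DH 4. The list count was 0 without CN 1, 0 without DH 4 and 0 without DH 3 and DH 4. Tap1, the transporter that loads peptides on class I molecules, rose by 1.12 ± 0.21, and H2-D1, a class I heavy chain whose probe set may cross-hybridise, by 0.54 ± 0.11. Other H2-D1 probe sets did not share its sign throughout, at 0.10, 0.68, -0.83, -2.18, 0.53, 0.35, 2.65 and -1.52 (log2). None of the negative ones had an unadjusted p under 0.05 in limma. Standard proteasome subunits, set beside the antigen presentation genes, had 0 of 31 past the threshold in limma (5 at an unadjusted p under 0.05) and a median of 0.03. Psmc2 had the smallest p of those 31, at -0.32.

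Interferon-induced genes had a median of 0.68 over 29 tested members, of which 26 were positive, and 0 passed in limma, where 9 had an unadjusted p under 0.05, all positive. Without CH 2 the count was 3. Parp14 had the smallest p, with 164.5, 259.1 and 163.8 in normal-diet mice and 394.0, 400.6, 308.8 and 321.1 in transgenic mice (log2 0.89 ± 0.23, limma adjusted p = 0.0739). Usp18 was at 1.92 and Gbp6 at 1.45 with wider spread. Wild-type high-fat array CH 2 had a Usp18 signal of 763.6, above the transgenic range of 336.7 to 521.7. The list median ranged from 0.44 to 1.04 over the settings tried.

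Markers of Kupffer cells, the resident macrophages of the liver, were higher on average in the transgenic arrays, and 1 of 9 tested passed. All 9 had positive values with a median of 1.06. Cd5l, a macrophage-secreted protein, had 801.0, 355.5 and 539.0 against 2796.0, 3509.8, 1021.3 and 2231.7 (log2 2.02 ± 0.46, limma adjusted p = 0.0456), with DH 3 lowest, and its call ended without any CN array, CH 1, CH 4, DH 1, DH 2 or DH 4. Summed over the 10 markers, signal was 3003.2 to 5525.6 on the CN arrays and 5081.1 to 14256.5 on the DH arrays, which overlap. DH 3 was the lowest of the transgenic arrays and DH 2 the highest. Ccl6, a macrophage chemokine, and Folr2, a folate receptor of macrophages, were outside the list and are named after their values were seen: they rose by 1.85 ± 0.31 and 1.53 ± 0.34 (limma adjusted p = 0.0157 and 0.0447).

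Prtn3, proteinase 3 of neutrophil and myeloid precursor granules, had the second largest fitted difference after Lcn2. Its signals were 7.0, 33.5 and 34.6 in normal-diet mice, 6.1, 13.3, 43.9 and 14.1 in wild-type high-fat mice, and 202.6, 1417.8, 251.9 and 542.4 in transgenic mice. All 4 transgenic arrays were above all 7 wild-type arrays. Every wild-type value lies under the limit of 53.0 used for dim probe sets, so Prtn3 entered the test only through the transgenic arrays, and its fitted difference of 4.47 (log2) and its place among the called genes are given as a description. The other 9 neutrophil markers were dim: Mpo, Camp and Ltf were under that limit on all 11 arrays and no other exceeded 92.8 in a transgenic mouse. S100a8 was at 22.1, 25.6 and 23.5 against 51.4, 75.1, 67.7 and 63.5, and S100a9 at 9.9 to 38.9 against 67.2 to 75.2. Both were under or just above the limit and were not tested.

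**Figure D4:**
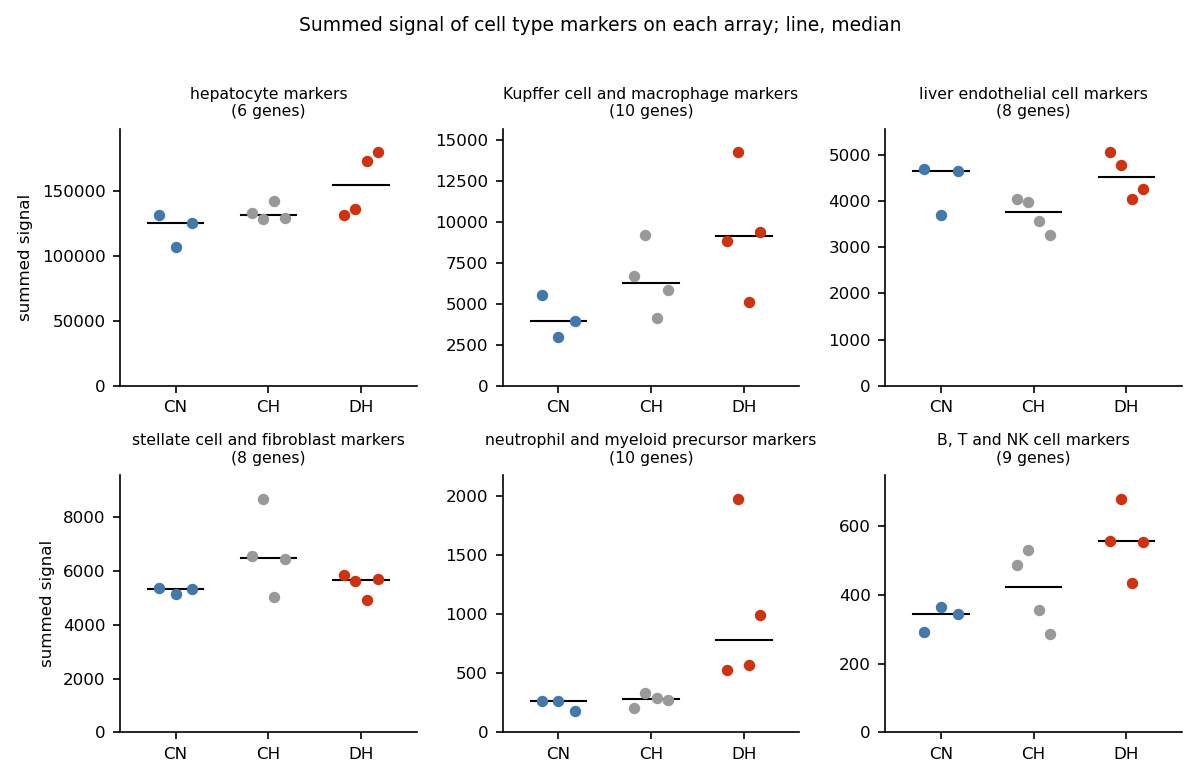
Summed signal of the markers of 6 cell types on each array, with a line at the group median and axes from 0. The DH points lie above every CN point for hepatocyte (narrowly), neutrophil and lymphocyte markers. They overlap the CN points for Kupffer, endothelial and stellate cell markers. Prtn3 is the brightest neutrophil marker on every DH array, and dim markers add to the sum. On DH 1 it is 202.6 of a summed 527.4. The lymphocyte sum stays under 681.

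Markers of other cell types were also summed. Endothelial markers had 0 of 8 past the threshold in limma, 0 with an unadjusted p under 0.05, and a median of -0.00, with Clec4g at 0.31 ± 0.15. Stellate cell markers had 0 of 6, also 0 unadjusted in limma, and a median of 0.05, with Reln at -0.28 ± 0.15. Markers of B, T and NK cells summed to 293.8 to 364.6 on the CN arrays and 435.9 to 680.7 on the DH arrays without overlap. Of these 9, 1 was bright enough to be tested, the leukocyte antigen Ptprc. It was at 98.3, 173.2 and 169.7 against 180.7, 391.2, 190.9 and 276.3 (log2 0.79 ± 0.34, limma adjusted p = 0.241). Skeletal muscle markers were dim, and their sums over 8 genes, 105.7 to 167.8 against 169.5 to 303.0, did not overlap either. Ckm and Mylpf, at 70.2 each, and Tnnt3, at 60.3, exceeded the dim limit on single transgenic arrays. On wild-type high-fat arrays, Ckm (68.1 and 61.2) and Acta1 (66.0) also exceeded that limit. Tnni2 exceeded it on most high-fat arrays, with 72.3, 14.6, 86.1 and 80.4 in transgenic mice and 50.5, 69.4, 102.7 and 68.5 in wild-type high-fat mice. Its normal-diet signals were 8.8, 16.0 and 6.0. None of the 8 was tested. Median signal of the whole array was 107.3 to 118.45 on DH and 97.2 to 106.55 on CN, also without overlap. Its part in the sums of dim markers was not tested. Erythroid Alas2, at 1516.6 on CN 3, and pancreatic Cela1 did not pass. The part of blood and macrophage content in the rises above was not tested. In whole liver, more cells of a type and more RNA per cell cannot be told apart.

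Of 28 tested genes of DNA replication, 10 rose (35.7%, against 1.4% of all genes) and none fell, 26 were positive and the median was 0.78. Mcm5 and Mcm3 count among the 10 and entered the test through the transgenic arrays, as given below. This share is therefore a description. Rrm1, the large subunit of ribonucleotide reductase, which supplies deoxynucleotides, had 95.9, 111.9 and 94.2 in normal-diet mice and 276.3, 252.6, 338.0 and 268.8 in transgenic mice. The spread within each group was small beside the gap (2.81-fold, log2 1.49 ± 0.15, limma adjusted p = 0.00118), and the call held with every array left out and without DH 3 and DH 4 (0.0196). Wild-type high-fat mice had 166.7, 170.4, 143.0 and 150.1. In contrast Rrm2, the small subunit, was at -1.01 ± 0.53 with overlapping arrays.

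The MCM proteins form the helicase that is loaded on DNA before replication. Mcm5 had 10.6, 48.7 and 17.5 in normal-diet mice and 178.9, 136.6, 289.8 and 212.7 in transgenic mice (log2 3.24 ± 0.50). Mcm3 had 26.7, 61.0 and 24.7 against 155.1, 164.0, 186.5 and 163.7 (log2 2.28 ± 0.38). Mcm4 had 95.5, 94.4 and 88.4 against 175.4, 298.5, 322.9 and 286.6 (log2 1.51 ± 0.26, limma adjusted p = 0.0162). The normal-diet means of Mcm5, Mcm3 and Mcm2 lay under the dim limit of 53.0, so these folds depend on values near background, as they do for 3 more called genes, Prtn3, Pla2g7 and Srrm4. The geometric means of Mcm5 and Mcm3 over the wild-type arrays alone also lay under that limit. Both genes thus entered the test through the transgenic arrays. Their fitted differences and their places among the rises of the list are given as a description. Mcm2 rose by 2.10 ± 0.47, Mcm6 was at 2.20 ± 0.96 and Mcm7 at 0.62, the last 2 without passing.

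The other rises were in loading and synthesis factors. Cdt1, which loads the helicase, had 165.5, 155.3 and 153.4 against 342.9, 418.1, 475.5 and 334.4 (log2 1.30 ± 0.27, limma adjusted p = 0.0362). Ung, which removes uracil from DNA, rose by 1.61 ± 0.37, Prim1, a primase subunit, by 1.54 ± 0.31 and Rfc2, of the clamp loader, by 0.77 ± 0.18. Rpa2, of the single-strand binding complex, rose 2.14-fold, from 77.5, 95.0 and 68.0 to 169.1, 163.6, 169.0 and 179.1 (limma adjusted p = 0.0120), and kept its call with each array left out in turn. Pcna, the sliding clamp, was at 0.29 ± 0.11 and did not pass. The list count was 3 without CN 1, 4 without CN 2, 4 without CN 3, 5 without DH 3, 4 without DH 4 and 1 (Rrm1) without DH 3 and DH 4, and its median stayed between 0.47 and 0.87.

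Among genes of mitosis and the cyclins, 2 of 16 tested rose (12.5%, against 1.4% of all genes) and the median was 0.39. Ccnd1, cyclin D1 of the passage from G1 to S phase, had 285.5, 623.8 and 629.1 against 1128.9, 2244.2, 2236.5 and 1969.4 (log2 1.92 ± 0.38, limma adjusted p = 0.0279). Its other 2 probe sets had differences of 1.98 and 1.99. Cdkn2c, an inhibitor of cyclin D kinases, rose by 1.14 ± 0.26. Of the 34 genes of the list on the array, 18 were too dim to be tested. The Ccnd1 call ended without any single CN array, DH 2, DH 3 or DH 4, and the Cdkn2c call without 10 of the 11 arrays in turn.

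In the endoplasmic reticulum list, 4 of 36 genes rose (11.1%, against 1.4% of all genes), none fell and the median was 0.20. Dnajc12, a co-chaperone, had 554.3, 507.0 and 709.9 against 1307.9, 3677.2, 1421.8 and 2690.3 (log2 1.83 ± 0.31, limma adjusted p = 0.0162). Sdf2l1 (1.41 ± 0.32) and the disulfide isomerases Pdia4 (0.73 ± 0.16) and Pdia3 (0.68 ± 0.12) also rose. Hspa5, the main chaperone of this compartment, was at 0.09 ± 0.14, and the stress factors Ddit3 and Atf4 at -0.43 and -0.29. The endoplasmic reticulum stress element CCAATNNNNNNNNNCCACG was found in 29.0% of 31 windows of the list and 0.2% of all tested genes, and in none of the 3 windows of genes past the threshold. The count was 0 without CN 2 and 0 without DH 4.

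Heat shock and cytosolic chaperones held 1 fall and no rise. Hspa1b, the stress-inducible cytosolic chaperone, fell from 3143.1, 2204.2 and 6843.5 to 1007.8, 967.7, 643.9 and 888.2 (log2 -2.07 ± 0.44, limma adjusted p = 0.0383), and was the 1 called gene of 24, with a list median of -0.19. CN 3 was the highest array, and the call ended without CN 1, CN 3 or any DH array. Its near copy Hspa1a was at -2.38 ± 0.73 and did not pass (0.117), and probes may not separate these 2 genes.

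The largest fall was in Csad, which encodes the cysteine sulfinate decarboxylase of taurine synthesis. Signals were 2708.9, 2565.8 and 3915.3 in normal-diet mice and 158.2, 125.0, 406.2 and 497.4 in transgenic mice (log2 -3.58 ± 0.45, limma adjusted p = 0.00319). Wild-type high-fat mice, at 625.5, 962.3, 622.2 and 1334.6, were below every normal-diet value and above every transgenic value. The call held in all 22 other settings. It was the 1 called gene of 46 in the list of urea cycle and amino acid breakdown, whose median was 0.17. Cdo1, which acts just before Csad in the pathway, was at -0.27.

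Dnase2a, a lysosomal DNase, fell from 1859.2, 1582.0 and 2983.6 to 208.8, 250.8, 391.7 and 476.3 (6.56-fold, log2 -2.71 ± 0.29, limma adjusted p = 0.00118), and held in all 22 settings. It was the 1 called gene among 31 of lysosomal hydrolases and membrane proteins (3.23% lower, against 0.681% of all genes), whose median was 0.06. The wild-type high-fat arrays, at 577.9 to 912.0, lay between the groups. Hexa, Ppt1 and Ctsa, other lysosomal hydrolases, were at 0.72, 0.62 and 0.51 without passing.

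Genes of fatty acid synthesis did not move together: 2 of 25 fell, 1 rose and the median was 0.02. Me1, the malic enzyme that supplies NADPH, fell from 3179.0, 4293.4 and 5511.9 to 996.1, 799.3, 854.6 and 662.1 (5.15-fold, log2 -2.37 ± 0.26, limma adjusted p = 0.00118) and held in all 22 settings. Wild-type high-fat mice had 1287.7, 1269.1, 2363.0 and 2323.0. Tkt, transketolase of the pentose phosphate pathway, fell by 1.21 on the log2 scale (SE 0.27, limma adjusted p = 0.0434), and lost its call with 9 of the 11 arrays left out in turn. Scd1, the stearoyl desaturase, had 18146.3, 20609.8 and 22984.3 against 7715.7, 17574.9, 4075.3 and 9502.6 (-1.27 ± 0.34, limma adjusted p = 0.0824). Fasn, fatty acid synthase, was at -1.94 ± 0.61 with overlapping arrays, from 313.6 on DH 3 to 2539.8 on DH 2. Fads2, the delta-6 desaturase of polyunsaturated fatty acids, rose instead, from 3952.2, 5786.0 and 4046.3 to 7870.0, 11567.1, 10921.6 and 9198.7 (log2 1.11 ± 0.22, limma adjusted p = 0.0298), a call that ended without CN 1, CN 3, DH 2, DH 3 or DH 4.

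In the list of glutathione and NRF2 target enzymes, 5 of 34 fell (14.7%, against 0.681% of all genes) and none rose. In all, 25 were negative and the median was -0.34. Gsta2, an alpha class glutathione transferase, had 2859.5, 1736.0 and 2633.4 in normal-diet mice and 712.3, 219.7, 188.2 and 235.1 in transgenic mice (8.17-fold lower, log2 -3.03 ± 0.43, limma adjusted p = 0.00731). DH 1 stood above the other 3 transgenic arrays. The call held with each array left out in turn. Gstm2, of the mu class, fell from 782.0, 1001.3 and 1022.9 to 309.2, 459.1, 437.2 and 493.3 (log2 -1.15 ± 0.25, limma adjusted p = 0.0413). Sod1, superoxide dismutase, fell by 0.62, Gstm1 by 0.61 and Gsta3 by 0.54 on the log2 scale (limma adjusted p = 0.0468, 0.0157 and 0.0456). Gsta3 and Sod1 hold a match to the antioxidant motif in the promoter window and Gsta2, Gstm1 and Gstm2 none.

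Not all genes of the list went down. Nqo1 was at -0.05 and Txnrd1 at -0.01, both usual NRF2 targets, Hmox1 at 0.83 and Nfe2l2, which encodes NRF2, at -0.50, and none passed. The count fell to 1 without CN 3 and 1 without DH 4, to 2 without CN 1, CN 2, CH 3 or DH 3, and to 0 without DH 3 and DH 4 together, where Gsta2 had the smallest adjusted p, 0.0723.

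Conjugation enzymes, carboxylesterases and dehydrogenases included 5 falls (13.5%, against 0.681% of all genes) and no rise among 37, and the falls were in 2 families. Carboxylesterases hydrolyse lipid esters and drugs. Ces1e had 3740.9, 6220.0 and 5426.4 against 2043.1, 1906.2, 1946.1 and 2061.5, with transgenic arrays almost equal (2.52-fold lower, log2 -1.34 ± 0.17, limma adjusted p = 0.00361), and held in all 22 settings. Ces2a had 7799.5, 6506.7 and 7382.4 against 3784.7, 2851.3, 2398.8 and 3295.6 (log2 -1.25 ± 0.21, limma adjusted p = 0.0150). Ces1d fell by 0.89 (SE 0.15, limma adjusted p = 0.0157), and its other 2 probe sets were at -1.08 and -0.70. Ces1g and Ces1f were at -0.97 and -0.59 without passing, and Ces1c at 0.03. The glucuronosyltransferases Ugt2a3 and Ugt2b5 fell by 0.58 and 0.45, calls lost without 10 and 9 of the 11 arrays in turn. The list median was -0.06, near that of all genes, and the count ranged from 1 without CN 1 to 6 without CH 2.

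Among cytochromes P450 and xenobiotic receptors, 1 of 32 fell, and the median was -0.14. Cyp4a12a, a fatty acid hydroxylase expressed mainly in males, had 8944.2, 6741.4 and 7474.4 against 3488.7, 2400.0, 2888.1 and 6108.0 (log2 -1.14 ± 0.25, limma adjusted p = 0.0424). Wild-type high-fat mice, at 7415.9 to 9322.0, were in or above the normal-diet range. DH 4 was the highest transgenic array, and the call ended without 9 of the 11 arrays in turn. It was also the 1 called gene of 21 male-biased liver genes, with a median of -0.36 that ranged from -0.54 to -0.03 over the settings. Of the 21, 8 had an unadjusted p under 0.05 in limma, 5 positive and 3 negative. Transgenic arrays were all above the normal-diet arrays for 4 of the 21 and all below for 2 (8.46% and 7.1% over all genes). Female-biased genes had 0 of 14 past the threshold in limma (3 unadjusted) and a median of 0.50, with a range of 0.06 to 0.91, and Cyp2b9 spread from 37.5 to 4461.7 within the normal-diet mice.

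Cholesterol synthesis and uptake had 0 of 27 genes past the threshold in limma, 11 with an unadjusted p under 0.05 (10 negative), a median of -0.31, 20 negative values and 8 genes whose transgenic arrays were all below the normal-diet arrays, against 7.1% of all genes tested. Hmgcs1, the HMG-CoA synthase of the pathway, had 5497.9, 9392.3 and 8077.6 against 3831.2, 4053.5, 2370.5 and 2634.2 (log2 -1.25 ± 0.31, limma adjusted p = 0.0624). Cyp51, lanosterol demethylase, was at -1.01 ± 0.26 (0.0729). Subunits of oxidative phosphorylation had 1 of 64 past the threshold as lower, a median of -0.08 and 51 negative values, and 14 had transgenic arrays all below the normal-diet arrays, where 7.1% of all genes did. Ndufb6, of complex I, fell from 4390.4, 4529.2 and 4426.4 to 3354.1, 3264.5, 2902.7 and 2959.0 (log2 -0.51 ± 0.09, limma adjusted p = 0.0162), and the call ended without any CN array or DH 4. Its other probe set was at -0.13.

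Lipid transport and oxidation showed few calls. Of 20 apolipoprotein genes, 18 were positive and the median was 0.27. An unadjusted p under 0.05 in limma was reached by 8 of them, all positive. Apoc2, the activator of lipoprotein lipase, was the 1 of 20 apolipoprotein genes that rose, from 6650.7, 7748.2 and 6842.5 to 11369.4, 10259.8, 12554.2 and 11337.7 (log2 0.68 ± 0.12, limma adjusted p = 0.0162), a call that ended without CN 1, CN 3 or DH 4. In wild-type high-fat mice it was at 8111.6 to 11044.8. Amacr, a racemase of bile acid intermediates, rose by 0.46 ± 0.11, the 1 call of 26 in its list, and lost it without 10 of the 11 arrays in turn. Fatty acid oxidation and PPARA targets had 0 of 38 in limma (2 at an unadjusted p under 0.05) and a median of -0.00, with Cpt1a, the carnitine transferase that admits fatty acids to mitochondria, at 0.61 ± 0.15 (limma adjusted p = 0.0624). Triglyceride and droplet genes had 0 of 28 (5 unadjusted), with Cd36, a fatty acid transporter, at 1.78 ± 0.60 and overlapping arrays from 736.9 to 3543.5 in transgenic mice.

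Insulin and growth hormone signalling had 1 of 34 past the threshold (2.94% as higher, against 1.4% called higher over all genes). Igfbp2, which binds insulin-like growth factors, rose from 7262.6, 5737.7 and 8072.0 to 16097.0, 9802.8, 19067.6 and 15986.1 (log2 1.09 ± 0.23, limma adjusted p = 0.0377), and wild-type high-fat values were 5787.7 to 9539.0. Its call ended without any CN array, CH 1, DH 1, DH 3 or DH 4, with adjusted p up to 0.131. Akt1 itself, measured at the RNA level in liver, had 481.7, 392.2 and 371.3 against 445.7, 585.3, 433.9 and 519.0, which overlap (log2 0.26 ± 0.14, limma adjusted p = 0.371). A second, dimmer probe set was at -0.05. Whether these probes read the transgene is not given in the sources used here. Gluconeogenic genes had 0 of 20 in limma (7 unadjusted) and a median of 0.18, with Tat, tyrosine aminotransferase, at 1.03 ± 0.24 (limma adjusted p = 0.0530).

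The keratins Krt8 and Krt18, partners in the filaments of hepatocytes, rose by less than 2-fold. Krt8 had 1829.9, 1895.3 and 1754.0 against 2589.9, 2321.5, 2874.1 and 2760.2 (log2 0.53 ± 0.10, limma adjusted p = 0.0193), and wild-type high-fat mice, at 2778.5 to 3167.6, reached above the transgenic range. Krt18 rose by 0.73 ± 0.15. Krt23, the third keratin tested, was at 1.38 ± 0.52 with overlapping arrays and did not pass. Tuba4a, an alpha-tubulin, fell by 0.77, the third call among 32 cytoskeleton genes, and the count was 0 without CN 1, CN 2, CN 3 or DH 4. Bhlhe40, a repressor tied to the clock, fell by 0.97 and lost its call without 9 of the 11 arrays in turn. It was the 1 call of 20 clock genes (5% lower, against 0.681% of all genes).

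Several lists held no called gene in limma, with 3, 5, 9, 7, 11 and 7 members at an unadjusted p under 0.05 in the order named here. Ribosomal proteins (33 tested, median 0.00, Rpl14 at 0.76), ribosome biogenesis (29, -0.09, Npm1 at -0.31), glycolysis and glycogen (23, -0.08, Pdk1 at -1.76), TCA cycle enzymes (22, 0.03, Fh1 at 0.86), metal and heme handling (27, -0.01, Blvrb at -0.60) and hepatocyte transcription factors (20, -0.16, Tbx3 at -0.79) are given with the member of smallest p in log2 units. Immediate early genes had 0 of 26 in limma (7 unadjusted) and a median of 0.32, with Btg2 at 2.06 ± 0.49 (limma adjusted p = 0.0529), and DH 3 at 6217.1 far above the 1041.3 to 2357.0 of the other transgenic arrays.

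Among the 12 largest rises and 12 largest falls, 5 genes belong to no list here. Gnat1, a transducin subunit known from photoreceptors, rose from 67.9, 96.8 and 41.9 to 199.6, 538.2, 623.3 and 498.7 (log2 2.72 ± 0.54, limma adjusted p = 0.0295), a call lost without any CN array, DH 2, DH 3 or DH 4. Slc41a2, a magnesium transporter, rose from 182.5, 203.3 and 347.6 to 1023.6, 1684.7, 855.2 and 1389.0 (log2 2.35 ± 0.35, limma adjusted p = 0.00926), and kept its call with each array left out. Pla2g7, the lipoprotein-associated phospholipase of macrophages, rose by 2.20 ± 0.41. Tsc22d1, a leucine zipper protein, fell from 2878.0, 3005.5 and 5343.4 to 1160.9, 1211.5, 617.1 and 1228.2 (log2 -1.82 ± 0.36, limma adjusted p = 0.0261), a call lost without any CN array, DH 3 or DH 4. Mme, the membrane peptidase neprilysin, fell from 1126.7, 1496.9 and 1212.5 to 720.6, 582.4, 333.6 and 363.6 (log2 -1.42 ± 0.25, limma adjusted p = 0.0162), and its call ended without CN 2 or DH 4.

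A further set outside the lists is named after its values were seen. Serpina10, the protein Z-dependent inhibitor of coagulation, rose by 0.78 ± 0.12 and Gfra1, a receptor of glial cell line-derived neurotrophic factor, from 952.3, 811.9 and 853.9 to 1526.6, 1735.4, 1670.3 and 1974.2 (log2 0.98 ± 0.11, limma adjusted p = 0.00123). Slc23a2, an ascorbate transporter, rose by 0.91 ± 0.14 and Ibtk, an inhibitor of Bruton's kinase, by 0.97 ± 0.13. With Lcn2, Saa1, Lrg1, Itih3, Csad, Dnase2a, Me1 and Ces1e, these 4 were the 12 genes past the threshold in all 22 other settings, those without single arrays and without DH 3 and DH 4 included.

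**Figure D5:**
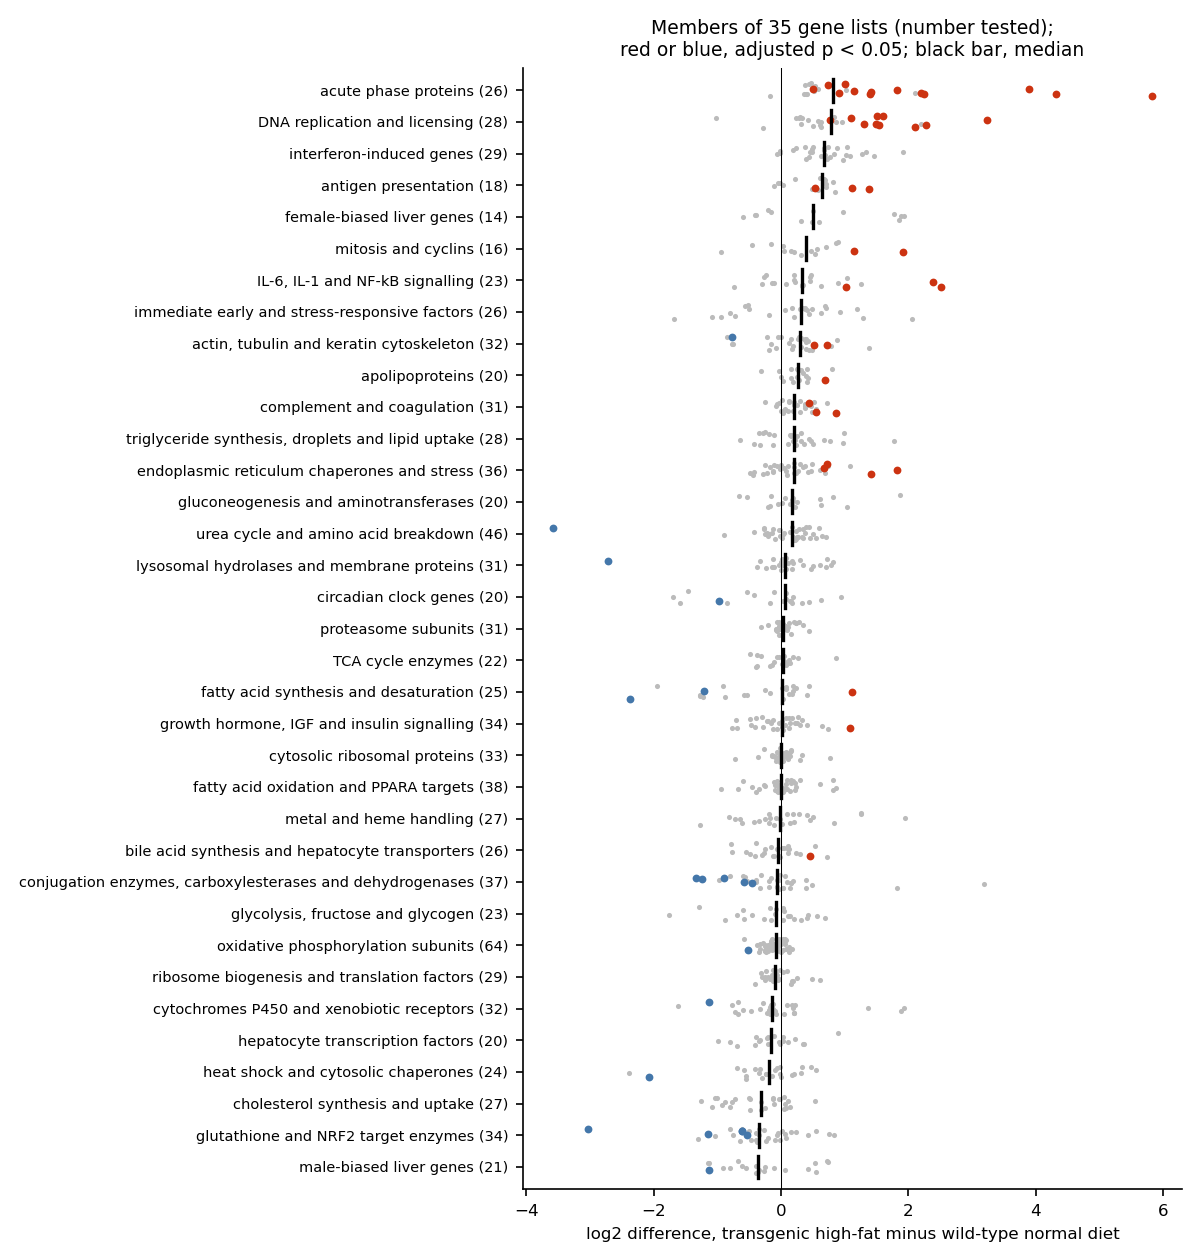
Each row is 1 of 35 gene lists, ordered by median, with the number of genes tested in brackets, and each point is 1 gene at its log2 difference, transgenic high-fat minus wild-type normal diet. Red and blue points passed as higher and lower, and the black bar is the list median. Acute phase proteins (13 of 26) and DNA replication (10 of 28) hold the most red points, and glutathione and conjugation enzymes (5 each) the most blue. The 10 include Mcm5 and Mcm3, which entered the test through the transgenic arrays. Over all genes tested, 1.4% passed as higher and 0.681% as lower.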

How the data were processed

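Total RNA from mouse liver was labelled by poly-dT primed in vitro transcription with biotin, per the labels' protocols, and hybridised to 1 array per mouse. The values are probe-level signal intensities summarised and scaled per array with MAS5 (version not given), per the submitters' processing notes; the deposited intensity values have a trimmed mean near 500.3 on each array. Of 22690 probe sets, 64 controls were left out, and genes were named where the platform annotation gave 1 symbol (20380 probe sets; 691 had several and 1555 none). Intensities under 1 were set to 1 and log2 was taken. The dimmest 40% of probe sets, those with a geometric mean signal under 53.0 over the arrays, were removed, and the brightest probe set stood for each gene, leaving 7924. A group-mean model over all 11 arrays was fitted with limma 3.58.1 in R 4.3.3 (eBayes with an intensity trend), so that all 3 groups share one estimate of the spread, and p was adjusted over all genes by Benjamini-Hochberg at a threshold of 0.05. Errors are SE of the fitted log2 difference (n = 3 against 4), folds are geometric, and list medians are over the members tested.

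The genes named are the 12 largest rises and 12 largest falls among non-overlapping genes past the threshold, up to 3 members of each of 46 lists (35 pathways and 11 cell type marker lists) or else the member of smallest p, all genes of a count of 5 or fewer, and Akt1. Members and lists were chosen with earlier results of these data known. On simulated data of 7924 genes for this comparison, 68% of 2-fold and 97% of 4-fold changes were recovered with 6 false calls, and 0 calls were made in unchanged data. The simulated noise was independent between genes and arrays, without whole-array features like those of DH 3 and DH 4. These rates therefore do not cover false calls that such features could give. Alternatives covered the normalization, offset, filter, choice of probe set, error model, arrays in the fit, replicate block and each array left out. The deposited values carry no detection calls, and the number of arrays limits the precision. Nothing in the labels ties the mice to litters or batches.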

Additional observations from a re-analysis of the deposited data

Results flagged for a closer look

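In 4 of 68 genes examined, 1 of the 4 transgenic arrays stood apart from the other 3, its gap to the nearest taking more of the group's range than Dixon's 95% critical value. Chance flags about 1 in 20 groups. Gsta2 was at 712.3 in transgenic array 1, where the other 3 were at 188.2 to 235.1 (0.833 of the range). Tsc22d1 was at 617.1 in transgenic array 3, below 1160.9 to 1228.2 (0.918). The endothelial marker Clec4g was at 1658.5 in transgenic array 3, below 2306.7 to 2381.3 (0.912). Fh1, fumarate hydratase, was at 5249.5 in transgenic array 1, below 8545.7 to 8803.1 (0.943).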

How the results depend on the processing

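In the 22 other settings, 0 of the log2 differences of the 70 called genes named from the largest changes and the gene lists reversed. The other called genes were not checked for a reversal. The 165 calls (111 higher, 54 lower) became 253 with every probe set on its own, 88 of them lower, over more tests. They became 81 (60 and 21) without the intensity trend, 104 with only the 7 arrays compared (27 lower), and 23 (17 and 6) without transgenic arrays 3 and 4, where fewer samples remain. Without the filter on dim probe sets, 34 were lower. With 1 array left out the calls ranged from 36 to 199, the higher ones from 24 to 137 and the lower ones from 10 to 62. With the replicate block 139 passed (97 higher, 42 lower). The numbers do not pair the mice: correlations of same-numbered deviations were -0.01, -0.06 and 0.11, and none of the 3 normal-diet arrays matched its own number best. Over all settings, 1456 single-gene differences kept their side of the threshold, 469 lost it and 18 gained it. Among medians of lists, 895 moved by less than the spread and 50 by more. The replication count was 2 with the lowest 60% left out, since fewer members were tested. Of 57 other probe sets of 30 named genes, 45 had the same sign and 12 the opposite, of which 0 had an unadjusted p under 0.05 in limma. Signal near background limits Prtn3, Mcm5, Mcm3, Mcm2, Pla2g7 and Srrm4.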

Other observations

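Several genes past the threshold belong to no gene list used here and were chosen after their values were seen. Among genes of amino acid transport, Slc3a1, a subunit of the cystine transporter, rose from 917.8, 674.7 and 816.9 in normal-diet wild-type mice to 1719.3, 3230.5, 1387.9 and 2234.3 in transgenic high-fat mice (log2 1.35 ± 0.24, limma adjusted p = 0.0162). Slc7a2, a cationic amino acid transporter, rose by 1.33 ± 0.30. Rdh16f2, of the retinol dehydrogenase family, rose from 1010.4, 1137.1 and 1314.1 to 3783.5, 2509.4, 3916.9 and 3232.7 (log2 1.53 ± 0.24, limma adjusted p = 0.0106). Of the inflammatory genes outside the lists, the kinase Ikbke, the interleukin-13 receptor subunit Il13ra1 and the interferon-induced membrane protein Ifitm3 rose by 1.42, 1.04 and 0.99 (log2), and the groups did not overlap in any of them. Itih1, a partner chain of Itih3, rose by 0.50 and the disulfide isomerase Pdia5 by 1.06.

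Among the falls outside the lists, Car1, a carbonic anhydrase, went from 312.8, 257.4 and 255.3 to 131.0, 107.8, 134.1 and 138.1 (log2 -1.11 ± 0.17, limma adjusted p = 0.0108), with transgenic arrays close together. Aox1, an aldehyde oxidase, went from 1408.4, 1256.3 and 1846.4 to 837.9, 589.8, 578.8 and 865.3 (log2 -1.07 ± 0.21, limma adjusted p = 0.0240).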
